A study of Saccharomyces cerevisiae with 18 samples.

Results

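Transcripts of 9 enzymes that make GTP, UTP and CTP in budding yeast are described here: IMD2 (YHR216W), IMD3 (YLR432W), IMD4 (YML056C), GUA1 (YMR217W), URA2 (YJL130C), URA6 (YKL024C), FUR1 (YHR128W), URA7 (YBL039C) and URA8 (YJR103W). They were taken by gene identifier from 2 tables of raw counts that hold 7126 genes each. The choice of genes was made with earlier results of these data known. All 9 were abundant enough to be tested in every comparison. The series measured polyadenylated RNA of Saccharomyces cerevisiae cultures in 18 libraries that fall into 6 groups of 3 biological replicates. Experiment 1 held wild-type (WT) cultures given 0.4 M NaCl for 15 min and untreated (basal) WT cultures, in stranded TruSeq libraries. Experiment 2 held salt and basal cultures of a strain in which a KAN cassette replaces HOG1 (HOG1-KO), the osmostress MAP kinase, and salt and basal WT cultures, in Lexogen CORALL libraries. The labels name BY4741 as the strain, YPD as the medium and an OD660 of 0.6 at harvest for all groups.

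GTP is made from IMP in a pair of steps: IMP dehydrogenase, encoded by the IMD genes, forms XMP, and GMP synthetase (GUA1) turns XMP into GMP. UTP is made de novo by a route that starts with URA2 and ends with the kinases that add phosphates to UMP, or from salvaged uracil through FUR1. CTP synthase, encoded by URA7 and URA8, then aminates UTP to CTP. In exponentially growing yeast most of these nucleotides are spent on RNA, above all on ribosomal RNA, and IMD2 is a textbook case of a gene switched on when GTP runs low.

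The upstream stretches of 3 members are shown: IMD4 and IMD2 because they encode the same enzyme and responded differently to salt, and URA8 because it alone among the 9 genes was called higher with salt. Each stretch runs on the coding strand from base 250 to base 101 before the start codon (150 bases, build R64, RefSeq) and lies at chrX:620504-620653 on the plus strand for URA8, chrXIII:164277-164426 on the minus strand for IMD4 and chrVIII:554146-554295 on the plus strand for IMD2. Capitals mark, on either strand, the letters of PAC (GATGAG) and RRPE (AAAATTT), 2 elements common upstream of ribosome production genes, and of STRE (AGGGG), the stress response element.
URA8: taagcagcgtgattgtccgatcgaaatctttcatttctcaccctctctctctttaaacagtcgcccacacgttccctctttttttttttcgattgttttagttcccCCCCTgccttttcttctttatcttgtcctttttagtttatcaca
IMD4: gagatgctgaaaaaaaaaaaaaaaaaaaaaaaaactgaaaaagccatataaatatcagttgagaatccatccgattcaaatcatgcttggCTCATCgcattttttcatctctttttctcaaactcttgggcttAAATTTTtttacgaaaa
IMD2: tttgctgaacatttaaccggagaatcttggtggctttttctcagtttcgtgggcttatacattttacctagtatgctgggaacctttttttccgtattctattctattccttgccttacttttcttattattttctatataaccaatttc
The URA8 stretch holds 1 STRE match, at 140 to 144 bases before its start codon. The IMD4 stretch holds 1 PAC and 1 RRPE match, and the IMD2 stretch none of the 3. Outside the stretches shown, IMD2 has an RRPE match at 264 to 270 bases before its start codon, and URA8 has a PAC match at 275 to 280 bases and an RRPE match at 18 to 24 bases. Within 300 bases of the start codon, PAC letters stood before 6 of the 9 genes and before 19.1% of 6006 annotated genes, RRPE letters before 6 of 9 and 24.4%, and STRE letters (GUA1 and URA8) before 2 of 9 and 22.2%. TGACTC, the core letters bound by the amino acid regulator Gcn4, stood before GUA1 and URA2 and before 7.74% of all genes. These matches describe letters and not sites in use.

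Total counts per library lay between 11135883 and 16527859. HOG1 had at most 1 count in any HOG1-KO library and at least 188 CPM (counts scaled to the library total) in WT libraries. LEU2, MET17 and URA3, which BY4741 lacks, had at most 2 counts in any library of experiment 2, whereas in experiment 1 their counts lay at 168 or more. URA3, the OMP decarboxylase of UTP synthesis, stood at 14.1 to 19.9 CPM in salt and 17.6 to 36.3 CPM in basal cultures of experiment 1, so these libraries go against the labelled strain and the experiments differ in pyrimidine genotype as well as in kit. Levels are given as CPM scaled by TMM factors within each experiment and are not compared across experiments. In experiment 2, WT salt replicate 2 and WT basal replicate 1 differed from their fellow replicates, with deviations from the group means that went together (r = 0.76 across 6107 genes, which are not independent). For the 9 genes, values without both are given beside the results. Leaving out both keeps 2 libraries in each WT group of experiment 2. Because they were picked for their deviation, the spread without them can be understated, and p-values and numbers of calls can be too favourable. A count is a share of the RNA of a culture, so fewer cells with a transcript and less transcript per cell cannot be told apart.

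With salt, 6 of the 9 transcripts fell in WT cells of experiment 1, in HOG1-KO cells and in WT cells of experiment 2, namely IMD3, IMD4, GUA1, URA2, FUR1 and URA7. URA8 rose in all 3 sets of cultures, and the changes of IMD2 and URA6 did not pass the test in any of them. In experiment 1, 33.8% of all genes tested were lower and 35.4% higher by the same rule, an adjusted p under 0.05 in edgeR's quasi-likelihood test. In experiment 2 the shares were 25.6% lower and 28.8% higher in HOG1-KO cells and 27.2% lower and 30.1% higher in WT cells. The median log2 change of the 9 genes was -1.86 in experiment 1, -0.86 in HOG1-KO cells and -1.11 in WT cells of experiment 2, beside medians over all genes of 0.02, 0.02 and 0.04. The HOG1-KO and WT responses of experiment 2 share 1 estimate of the spread but no library. Without both WT libraries that stood apart, the called changes of WT cells of experiment 2 kept their calls, at -0.86 for IMD3, -1.32 for IMD4, -1.06 for GUA1, -1.33 for URA2, -1.31 for FUR1, -2.35 for URA7 and 0.70 for URA8. URA6 was then at -0.16 and not called, and IMD2 at -0.36 and called; of all genes, 31.7% were then lower and 32.6% higher.

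**Figure D1:**
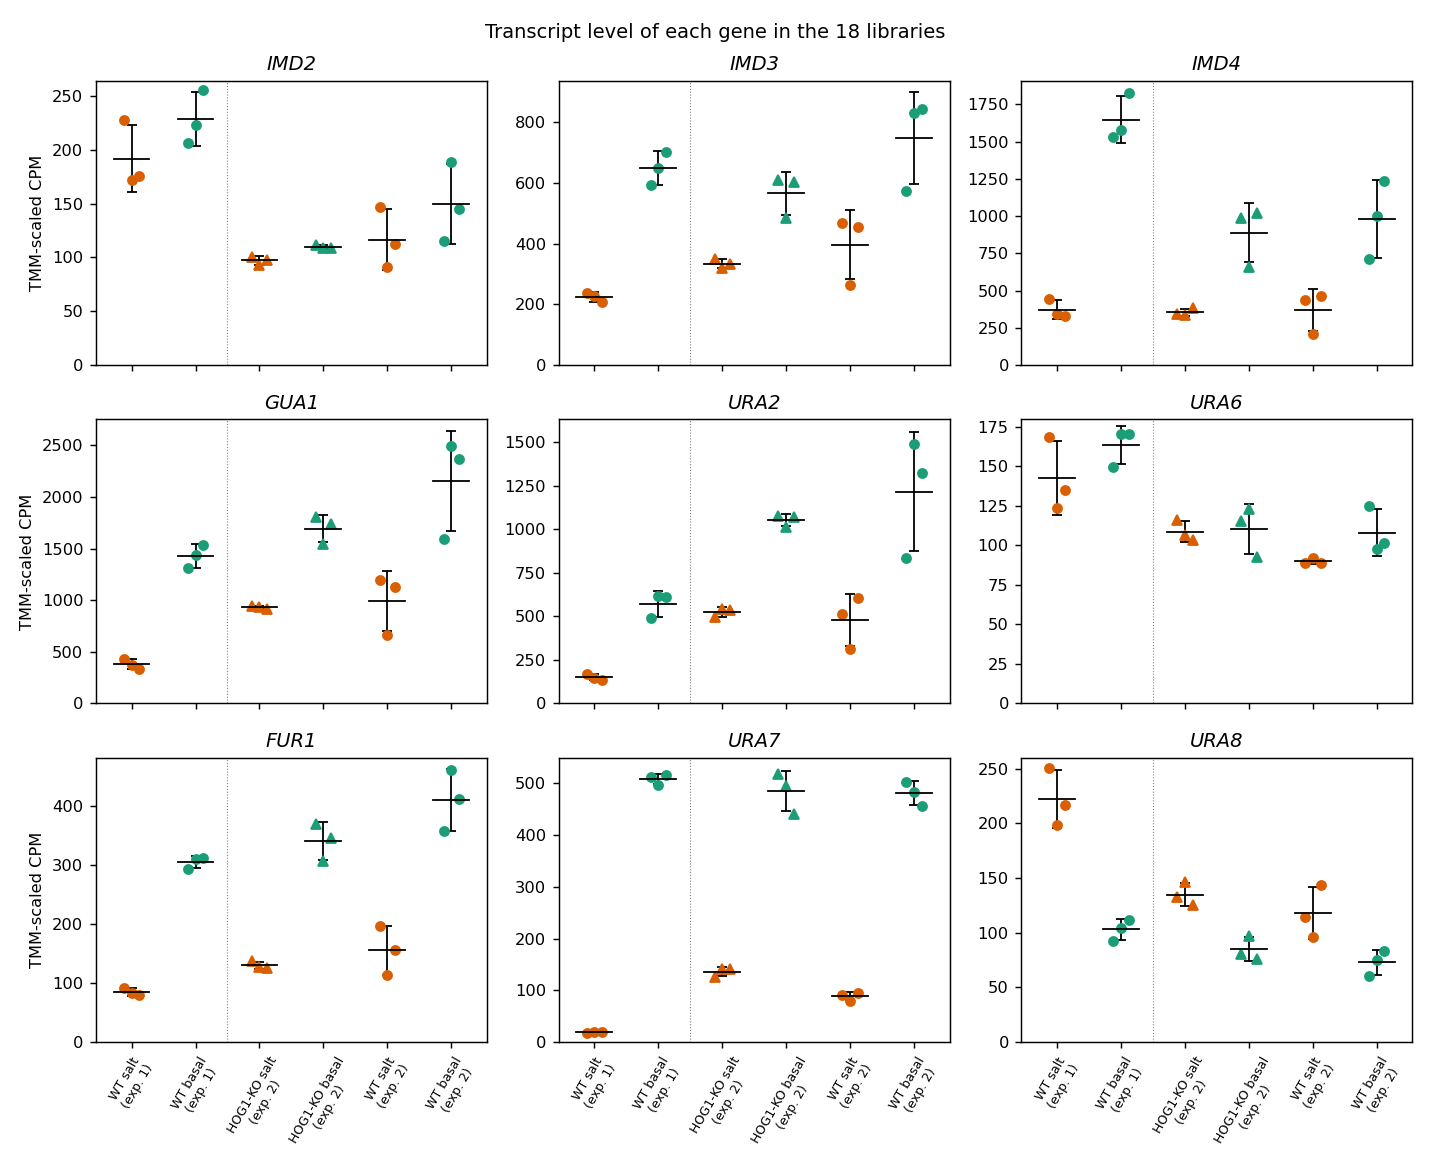
TMM-scaled CPM of the 9 genes (vertical axis, linear, from 0) in each of the 18 libraries; salt is orange and basal green, circles are WT and triangles HOG1-KO, lines are means and bars SD (n = 3), and the dotted line parts the experiments. In experiment 1, URA7 has the lowest salt levels of the 9 genes, at 18.1 to 20.1 CPM. URA8 is the panel in which the salt libraries lie above the basal ones in every set of cultures.

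The CTP synthases moved in opposite directions. URA7 (chromosome II, 143989 to 145728, minus strand, 1 coding exon) had 18.1, 20.1 and 19.2 CPM in the salt libraries of experiment 1, against 512, 498 and 517 CPM in the basal libraries. It was 26.6-fold lower in salt, a log2 change of -4.73 ± 0.10 (standard error; edgeR adjusted p = 3.83e-12), the largest decrease but 8 among 5878 genes tested. In HOG1-KO cells it had 126, 140.3 and 141 CPM in salt, against 518, 495 and 442 CPM in basal cultures (-1.84 ± 0.14, edgeR adjusted p = 7.11e-08). Within each experiment, all salt libraries lay below all basal ones.

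In WT cells of experiment 2, URA7 had 90.4, 79.7 and 94.3 CPM in salt, against 503, 484 and 456 CPM in basal cultures (-2.45 ± 0.15, edgeR adjusted p = 1.22e-09). URA8 (chromosome X, 620754 to 622490, plus strand, 1 coding exon), the minor CTP synthase, had 251, 198 and 217 CPM in salt in experiment 1, against 92.3, 105 and 112 CPM in basal cultures. Its log2 change was 1.11 ± 0.11 (edgeR adjusted p = 1.58e-06), or 2.16-fold, and the groups did not overlap.

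In experiment 2 URA8 had 133, 146 and 125 CPM in salt, against 80.9, 97.1 and 76.2 CPM in basal HOG1-KO cultures (0.67 ± 0.17, edgeR adjusted p = 0.00381). The WT cultures of that experiment held 114, 96.0 and 144 CPM in salt, against 60.3, 74.8 and 83.2 CPM in basal cultures (0.70 ± 0.17, edgeR adjusted p = 0.00273). In both strains every salt library lay above every basal one. URA8 lies 59 bases from SOD1, which is on the opposite strand.

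Per kilobase of coding sequence, the balance between the CTP synthases turned over in experiment 1. URA7 made up 6.74%, 9.19% and 8.12% of the summed CTP synthase counts in the salt libraries, against 84.7%, 82.6% and 82.2% in the basal libraries. The difference of the means was -75.2 percentage points (8.02 ± 1.23% in salt, 83.2 ± 1.36% in basal cultures, SD, n = 3 each). In experiment 2 the URA7 share was 50.2 ± 2.33% in salt and 85.1 ± 1.45% in basal HOG1-KO cultures (SD, n = 3 each), a difference of -34.9 points. In WT cultures of experiment 2 it was 43.0 ± 3.03% in salt and 86.8 ± 2.37% in basal cultures (SD, n = 3 each), a difference of -43.8 points (-43.7 without both libraries that stood apart). No salt library overlapped a basal one, and the exact two-sided permutation p was 0.1 in each of the 3 cases, the smallest that 3 against 3 libraries allow. URA7 and URA8 coding sequences are 71.7% identical and share no 50-base window, the read length.

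**Figure D2:**
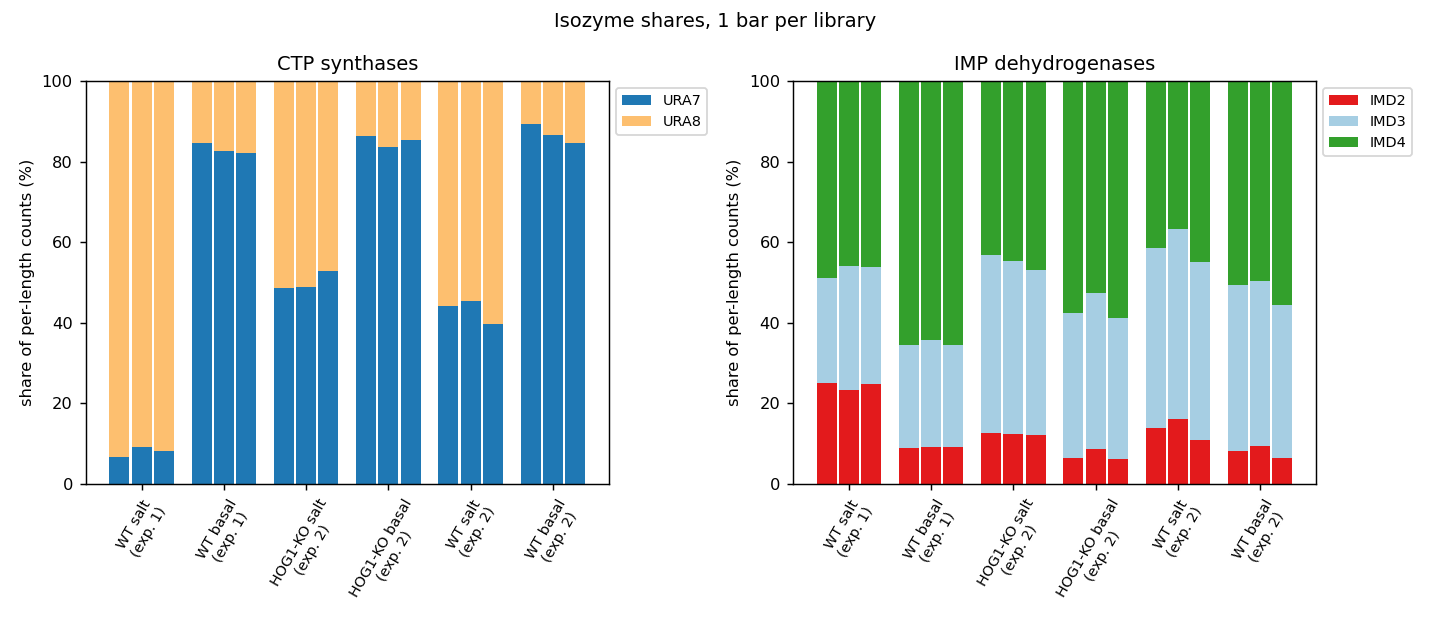
Share of each isozyme (vertical axis, percent of counts per kilobase of coding sequence) among the CTP synthases on the left and the IMP dehydrogenases on the right, 1 bar per library. URA7 takes 6.74% to 9.19% of the CTP synthase counts in the salt libraries of experiment 1 and 82.2% to 84.7% in its basal libraries, and the IMD2 share is higher in salt in every set of cultures.

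Of the IMP dehydrogenases, IMD3 and IMD4 fell and IMD2 did not pass the test. IMD4 (chromosome XIII, 162194 to 164176, minus strand, 2 coding exons) had 446, 341 and 329 CPM in salt in experiment 1, against 1534, 1577 and 1826 CPM in basal cultures. The groups lay far apart, with a log2 change of -2.15 ± 0.14 (edgeR adjusted p = 4.02e-08), or 4.42-fold lower. IMD4 had 345, 333 and 382 CPM in salt, against 985, 659 and 1018 CPM in basal HOG1-KO cultures (-1.33 ± 0.28, edgeR adjusted p = 0.000972). In WT cultures of experiment 2 it had 436, 207 and 463 CPM in salt, against 710.0, 1003 and 1234 CPM in basal cultures (-1.41 ± 0.28, edgeR adjusted p = 0.000522). The lowest library of each of those WT groups was the one that stood apart, and without both the change was -1.32. The intron of IMD4 holds the small nucleolar RNA gene SNR54, which averaged at most 4.52 ± 0.49 CPM in any group (SD, n = 3).

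IMD3 (chromosome XII, 1002557 to 1004128, plus strand) had 238, 229 and 207 CPM in salt, against 595, 651 and 704 CPM in basal cultures of experiment 1 (-1.53 ± 0.10, edgeR adjusted p = 5.64e-08). HOG1-KO cells held 351, 321 and 333 CPM in salt, against 611, 484 and 604 CPM in basal cultures (-0.76 ± 0.22, edgeR adjusted p = 0.00817). For WT cells of experiment 2 the values were 469.7, 265 and 457 CPM in salt, against 574, 832 and 843 CPM in basal cultures (-0.92 ± 0.22, edgeR adjusted p = 0.00208). The salt and basal groups overlapped in none of these sets.

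IMD2 (chromosome VIII, 554396 to 555967, plus strand), the isozyme that responds to GTP shortage, had 228, 172 and 176 CPM in salt, against 207, 223 and 256 CPM in basal cultures of experiment 1. The groups overlapped, with a log2 change of -0.25 (95% interval -0.52 to 0.01, edgeR adjusted p = 0.0836). HOG1-KO cultures held 101, 93.0 and 98.1 CPM in salt, against 111, 108 and 109 CPM in basal cultures (-0.17, interval -0.57 to 0.22), and these groups did not overlap. WT cells of experiment 2 held 147, 90.9 and 112 CPM in salt, against 116, 189 and 145 CPM in basal cultures (-0.36, interval -0.76 to 0.04, and called at adjusted p = 0.0322 without both libraries that stood apart). Its share of IMP dehydrogenase counts per kilobase was 24.3 ± 0.943% in salt and 9.06 ± 0.169% in basal cultures of experiment 1 (SD, n = 3 each).

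In experiment 2 the IMD2 share was 12.4 ± 0.302% in salt and 7.17 ± 1.31% in basal HOG1-KO cultures, and 13.7 ± 2.64% in salt and 8.04 ± 1.42% in basal WT cultures (SD, n = 3 each). The WT difference was 4.48 points without both libraries that stood apart. Salt and basal shares did not overlap in any set, again at an exact two-sided permutation p of 0.1. The IMD2 and IMD3 coding sequences are 88.9% identical and share 8.01% of their 50-base windows, those of IMD3 and IMD4 are 82.1% identical and share 7.03%, and those of IMD2 and IMD4 are 79.1% identical and share none. Reads from shared windows could be assigned to either gene or dropped, so the values of IMD2, IMD3 and IMD4 are uncertain at least to that extent. IMD1, a near copy of IMD2, was not compared, so the uncertainty of the IMD2 levels and shares may be larger.

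GUA1 (chromosome XIII, 701790 to 703367, plus strand), which makes GMP from XMP, had 431, 368 and 336 CPM in salt in experiment 1, against 1308, 1436 and 1535 CPM in basal cultures (-1.91 ± 0.13, edgeR adjusted p = 3.74e-08). In HOG1-KO cells it had 947, 931 and 916 CPM in salt, against 1803, 1544 and 1733 CPM in basal cultures (-0.86 ± 0.22, edgeR adjusted p = 0.00412). In experiment 2 WT cells it had 1198, 659.8 and 1126 CPM in salt, against 1596, 2489 and 2367 CPM in basal cultures (-1.11 ± 0.22, edgeR adjusted p = 0.000562). The groups did not overlap, and GUA1 had the highest level per kilobase of the 9 genes in all 4 groups of experiment 2.

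URA2 (chromosome X, 165723 to 172367, minus strand, 6645 coding bases) encodes the protein that carries the first activities of de novo pyrimidine synthesis and is inhibited by UTP. It had 171, 144 and 137 CPM in salt, against 488, 616 and 613 CPM in basal cultures of experiment 1 (-1.93 ± 0.12, edgeR adjusted p = 3.34e-08). The HOG1-KO cultures held 496, 545 and 537 CPM in salt, against 1076, 1017 and 1071 CPM in basal cultures (-1.004 ± 0.24, edgeR adjusted p = 0.00224). Levels in experiment 2 WT cells were 516, 315 and 605 CPM in salt, against 833, 1494 and 1326 CPM in basal cultures (-1.35 ± 0.24, edgeR adjusted p = 0.000188), and the lowest of each was the library that stood apart. Every salt library lay below every basal library in all 3 sets.

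FUR1 (chromosome VIII, 362115 to 362765, plus strand), the uracil phosphoribosyltransferase of salvage, had 92.1, 82.3 and 78.8 CPM in salt, against 294, 310.4 and 313 CPM in basal cultures of experiment 1 (-1.86 ± 0.09, edgeR adjusted p = 2.58e-09). HOG1-KO levels were 137, 127 and 126 CPM in salt, against 370.0, 306 and 346 CPM in basal cultures (-1.39 ± 0.19, edgeR adjusted p = 1.84e-05). Levels in WT cells of experiment 2 were 196, 114 and 156 CPM in salt, against 358, 462 and 413 CPM in basal cultures (-1.40 ± 0.19, edgeR adjusted p = 1.08e-05). No salt library reached the level of a basal one.

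URA6 (chromosome XI, 392526 to 393140, minus strand), the kinase that phosphorylates UMP, had 169, 124 and 135 CPM in salt, against 149, 170.2 and 170.3 CPM in basal cultures of experiment 1 (-0.20, 95% interval -0.45 to 0.05). In HOG1-KO cells it had 116, 107 and 103 CPM in salt, against 115, 123 and 92.9 CPM in basal cultures (-0.02, interval -0.33 to 0.28). In experiment 2 WT cells it had 89.2, 91.9 and 88.9 CPM in salt, against 125, 97.6 and 102 CPM in basal cultures (-0.27, interval -0.57 to 0.04). The groups overlapped in experiment 1 and in HOG1-KO cells, and not in WT cells of experiment 2. URA6 lies 5 bases from MIN9 on the same strand, whose changes did not pass the test in any set either.

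**Figure D3:**
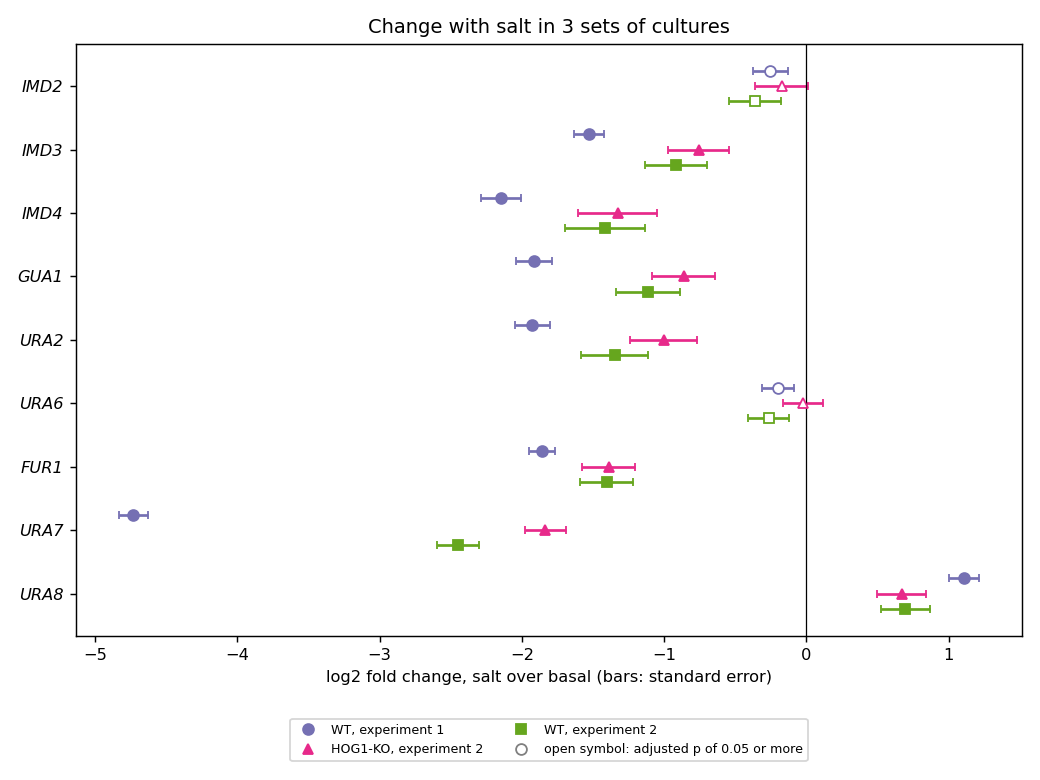
Log2 fold change with salt (horizontal axis, salt over basal, bars are standard errors) of the 9 genes in WT cells of experiment 1, HOG1-KO cells and WT cells of experiment 2. IMD3, IMD4, GUA1, URA2, FUR1 and URA7 lie left of 0 in each set, URA8 lies right of 0, and IMD2 and URA6 have open symbols throughout.

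The order of levels per kilobase of coding sequence changed with salt. In salt in experiment 1, GUA1, IMD4 and URA6 had the highest levels, at 239.8, 236 and 231 CPM per kilobase, with overlapping libraries, and URA7 had the lowest, at 11.01. In basal cultures of experiment 1 the order was IMD4 (1045 CPM per kilobase), GUA1 (904), FUR1 (469), IMD3 (413), URA7 (293), URA6 (266), IMD2 (145), URA2 (86.1) and URA8 (59.3), and no 2 neighbours overlapped. URA7 thus ranked 5 of 9 in basal cultures and last in salt. In HOG1-KO cells URA2, URA7 and URA8 overlapped in salt, at 79.1, 78.1 and 77.6 CPM per kilobase, while basal cultures held 159, 279 and 48.8. In WT cells of experiment 2, URA7 was last in salt, at 50.7 ± 4.34 CPM per kilobase, and ranked 5 in basal cultures, at 276 ± 13.5 (SD, n = 3 each).

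For the salt response of HOG1-KO against WT cells, 0 of the 9 genes were called by edgeR, against 9.81% of all genes, 1 had an unadjusted p under 0.05, and DESeq2 called 1. Both were URA7, whose decrease was smaller in HOG1-KO cells (-1.84 against -2.45), a difference of 0.61 ± 0.20 (95% interval 0.19 to 1.03, edgeR adjusted p = 0.0666). This difference was called in 4 of 19 alternatives, and adjusted p over all of them ran to 0.173. DESeq2 gave an adjusted p of 0.00179. In edgeR, keeping genes with 10 CPM or more in 3 libraries gave 0.0453, and leaving out WT salt replicate 2 gave 0.0358. The other call, without both WT libraries that stood apart, is given below. For the other genes the differences lay between -0.03 (URA8, interval -0.54 to 0.48) and 0.34 (URA2, interval -0.36 to 1.05), intervals wide enough to hold sizeable differences in either direction.

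In the salt cultures alone, URA7 was higher in HOG1-KO than in WT cells, a log2 difference of 0.62 ± 0.14 (edgeR adjusted p = 0.00383), with all 3 HOG1-KO libraries above all 3 WT libraries. This was the 1 member of 9 called in either direction. Of 6107 genes tested, 783 (12.8%) were called higher and 759 lower. The URA7 call held in all 20 alternatives, with an adjusted p of at most 0.0237. In basal cultures 0 of 9 were called by edgeR and 0 by DESeq2, against 0.982% of all genes in either direction, and 1 had an unadjusted p under 0.05. That gene was IMD2, at 111, 108 and 109 CPM in HOG1-KO and 116, 189 and 145 CPM in WT basal cultures (-0.45 ± 0.19, edgeR adjusted p = 0.407). URA7 differed by 0.01 in basal cultures (interval -0.28 to 0.31).

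Member calls in the basal comparison changed only when both libraries that stood apart were left out together, 1 of 20 alternatives. Leaving out any 1 library called 0 members there. WT salt replicate 2 is not in that comparison and acts on it only through the shared fit. In WT basal replicate 1 and WT salt replicate 2, IMD2, IMD3, IMD4, GUA1, URA2, URA8 and FUR1 lay below the mean of the other 2 libraries of their group, for IMD4 by -0.65 and -1.12 and for URA2 by -0.76 and -0.83 on the log2 scale. URA7 lay at 0.10 and -0.21. Without both libraries 5 members were called lower in HOG1-KO than in WT basal cultures: IMD2 (-0.60), IMD3 (-0.57), GUA1 (-0.52), URA2 (-0.42) and FUR1 (-0.36), while 11.4% of all genes were called lower and 5.72% higher. In salt, 4 members were then called lower in HOG1-KO cells (IMD2 at -0.41, IMD3 at -0.47, GUA1 at -0.32 and FUR1 at -0.44) beside URA7, which stayed higher at 0.55, while 23.4% of all genes were called lower and 24.2% higher. The URA7 response difference was then 0.51 (edgeR adjusted p = 0.0213), with 20.3% of all genes called.

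**Figure D4:**
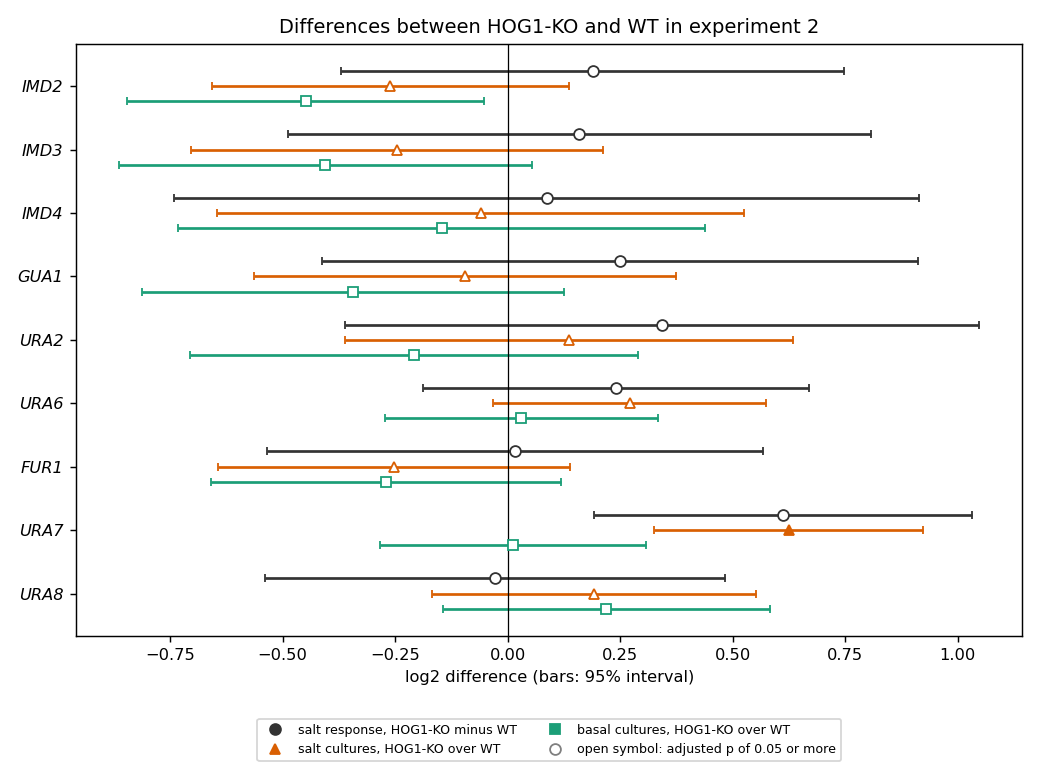
Log2 differences between HOG1-KO and WT cells of experiment 2 (horizontal axis, bars are 95% intervals) for the salt response, the salt cultures and the basal cultures. The filled symbol is URA7 in the salt cultures, at 0.62, and all other intervals have open symbols.

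The WT responses of URA7 differed between the experiments. Its decrease in experiment 2 was smaller than in experiment 1, a log2 difference of 2.23 ± 0.19 (edgeR adjusted p = 3.94e-05), the lowest p among 6092 genes. Of these genes, 93 (1.53%) were called higher and 64 lower. The other members were not called, with differences between -0.46 (URA8) and 0.75 (GUA1), and without the libraries that stood apart IMD3, IMD4, GUA1 and FUR1 were called higher too, at 0.53 to 0.84, as were 7.44% of all genes. Kit, auxotrophic markers and experiment change together, so their parts in this difference cannot be told apart.

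Other genes around these pathways were counted in 7 lists holding 50 genes, to be read beside the shares of all genes tested: 33.8% lower and 35.4% higher in experiment 1, 25.6% and 28.8% in HOG1-KO cells, and 27.2% and 30.1% in WT cells of experiment 2. A list of 5 further genes held URA1, URA4, URA5 and URA10 of de novo UTP synthesis and PPR1, a regulator of that route. Of these 5, 1 was higher and 4, PPR1 among them, were lower with salt in each of the 3 sets. Median log2 changes were -1.37 in experiment 1, -0.65 in HOG1-KO cells (the value of PPR1) and -1.002 in WT cells of experiment 2. With total counts as the only scaling, 1 was higher and 2 were lower in HOG1-KO cells. URA1, the dihydroorotate dehydrogenase, fell by 2.37, 0.81 and 1.26 in that order of sets, and URA10, the minor orotate phosphoribosyltransferase, rose by 1.36, 0.54 and 0.94. Of 10 genes of pyrimidine uptake and salvage, 7 were lower in experiment 1, 5 in HOG1-KO cells and 7 in WT cells of experiment 2, and 1, 0 and 0 were higher. FUI1, the uridine permease, changed by -2.71, -1.09 and -3.03.

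Of 11 genes that interconvert purine bases and nucleotides, 8, 7 and 8 were lower and 2 were higher in each set. HPT1, which salvages hypoxanthine and guanine, changed by -3.57, -3.82 and -4.51, and AAH1, the adenine deaminase, by -4.19, -1.82 and -2.57. YNK1, the nucleoside diphosphate kinase that makes GTP, UTP and CTP from the diphosphates, rose by 1.03, 0.46 and 0.83. Of 6 genes of PRPP and carbamoyl phosphate synthesis, 6, 5 and 5 were lower and 0 were higher.

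Of 6 genes of nucleotide breakdown, 3, 2 and 2 were higher and 2, 1 and 1 lower, which is near the shares of all genes. PHM8, a phosphatase that acts on nucleotides, rose by 3.72, 6.82 and 6.03, from low basal means of 4.94, 0.96 and 1.29 CPM. Of 7 genes of deoxynucleotide synthesis, 1, 2 and 1 were higher and 5, 2 and 3 lower. NRD1, which with NAB3 and SEN1 ends short transcripts and acts on IMD2 when GTP is plentiful, rose by 1.36, 0.73 and 1.38. Its partners did not rise with it: SEN1 changed by -0.57, -1.07 and -0.56, and NAB3 by 0.18 (not called), -0.49 and -0.56. Of their list of 5 factors, 2 were higher and 2 lower in each set.

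The genes whose levels ran most like URA7 over the 18 libraries, among 4710 genes compared, were NAN1, a component of the small-subunit processome, and AAH1. Their root mean square differences from URA7 were 0.26 and 0.28 on the log2 scale, centred within each experiment, against an SD of 1.68 for URA7 itself. NAN1 changed by -4.03 in experiment 1, -1.75 in HOG1-KO cells and -2.38 in WT cells of experiment 2. IMD3 ran most like RPS14B and SNU13, at 0.08 and 0.10, and FUR1 most like GCN4 and RLI1, at 0.11 and 0.12. GUA1 ran most like PRS3 and RPS14B, URA2 like SAM1 and ADE6, IMD4 like AUR1 and EFM1, URA8 like ATG45 and AVT3, IMD2 like MRS3 and WHI3, and URA6 like FRS2 and UCC1, at 0.10 to 0.18. IMD2 and URA6 varied little themselves, with SDs of 0.28 and 0.18, so their likenesses are weak beside that of URA7.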

How the data were processed

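The authors deposited raw counts of reads per gene in 2 tables, 1 for each experiment. The submitters' processing notes name HISAT2 (version 2.1.0), featureCounts (version 1.5.1) and build R64, and the labels' protocols name single-end reads of 50 bp. How strand and multi-mapping reads were handled, and which annotation was counted, is not given in the sources used here. Of the 7126 identifiers, 6048 were found in RefSeq.

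From the deposited counts, edgeR (version 4.0.16, R version 4.3.3) was run on each whole table with TMM scaling, filterByExpr and a robust quasi-likelihood F test, two-sided, with Benjamini-Hochberg adjustment over all genes tested and a threshold of 0.05. Experiment 1 was fitted on its 6 libraries, experiment 2 on its 12 with 1 estimate of the spread, and the difference of the WT responses on 12 WT libraries; 7 contrasts were made. Standard errors are the absolute log2 change divided by the square root of F, and 95% intervals use the t distribution with the fit's degrees of freedom. The steps were tested on simulated data. DESeq2 (version 1.42.0), other scalings, filters, a replicate block and left-out libraries were alternatives. Isozyme shares are per coding kilobase with no counts added. Both WT libraries that stood apart were picked from these same counts, for the gene tests as well. Leaving them out was added for the shares after seeing the data. IMD1 was not matched to an identifier, and no value is given. Some items are not reported here.

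The members and lists were chosen with earlier results of these data known. The genes named are the members, the largest called changes of each list (up to 2 each way, with some left out for length), strain markers, overlapping genes and the 2 genes most like each member. Replicate counts differed by more than sampling noise (chi-square per degree of freedom 6.34 to 168), so no library was counted as a repeat. Salt and basal libraries of the same number deviated together (correlations above 0.1 for every number) in HOG1-KO cells (0.16, 0.33 and 0.18), not in WT cells of experiment 1 (-0.42, 0.03 and -0.35) or experiment 2 (-0.54, -0.52 and 0.50).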

Additional observations from a re-analysis of the deposited data

Results flagged for a closer look

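Differences between responses that passed edgeR's test of the difference itself are listed with their values; their causes were not tested. Between the WT responses of experiment 2 and experiment 1, URA7 differed by 2.23 on the log2 scale, AAH1 by 1.57, URA1 by 1.06, the uridine kinase URK1 by 0.95 and HPT1 by -0.99. PHM8 differed by 2.25 in the same comparison. URA7, AAH1, URA1 and URK1 fell with salt in both experiments, less in experiment 2. PHM8 rose in both, more in experiment 2, and HPT1 fell in both, more in experiment 2. The basal level of PHM8 was low, at a mean of 4.94 CPM in experiment 1 and 1.29 CPM in WT cells of experiment 2. The size of its changes depends on these low levels. Over 19 alternatives URA7 and PHM8 kept their calls in all, URA1 and AAH1 in 18, URK1 in 15 and HPT1 in 13. The replicate block ended the calls of URA1 (edgeR adjusted p = 0.148), AAH1 (0.0825), URK1 (0.112) and HPT1 (0.180), and total counts as the only scaling that of HPT1 (-0.78, edgeR adjusted p = 0.104). Leaving out 1 library of experiment 1 also ended calls: WT basal replicate 2 or WT salt replicate 2 for URK1 and HPT1, WT salt replicate 3 for URK1, and WT basal replicate 1 or WT salt replicate 1 for HPT1.

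Between the HOG1-KO and WT responses of experiment 2, FUI1 differed by 1.94, falling by 1.09 in HOG1-KO cells and by 3.03 in WT cells. RNR1, the large subunit of ribonucleotide reductase, differed by 1.46, with a change of -0.43 in HOG1-KO cells that did not pass the test. In WT cells RNR1 changed by -1.89. HPT1 differed by 0.68 and the dUTPase DUT1 by 0.66, both falling in each strain and less in HOG1-KO cells. ISN1, the IMP nucleotidase, differed by -0.61, with a change of 0.20 in HOG1-KO cells that did not pass the test and a rise of 0.82 in WT cells. FUI1 and RNR1 kept their calls in all 19 alternatives, DUT1 in 12, HPT1 in 10 and ISN1 in 8. With total counts as the only scaling, DUT1 (0.67, edgeR adjusted p = 0.10002), HPT1 (0.71, 0.0820) and ISN1 (-0.58, 0.210) were not called, and ISN1 was not called without the low-count filter (0.0529). The other lost calls came from leaving out 1 library of experiment 2, which gave adjusted p of up to 0.117 for HPT1.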

How the results depend on the processing

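No called change of the 9 genes lost its call or its direction in any alternative, and the isozyme shares moved by less than the spread between replicates. With total counts as the only scaling, the all-gene median was 0.21 (WT salt response of experiment 2), 0.19 (HOG1-KO salt response), 0.17 (basal strains), 0.16 (salt strains) and 0.22 (WT responses between experiments). Under it these uncalled values changed sign: IMD2 0.0063 and URA6 0.15 with salt in HOG1-KO cells, URA8 0.0035 for the response difference of the strains, IMD4 0.027 in basal and 0.16 in salt strains, GUA1 0.12 in salt strains, and IMD2 0.066 and URA6 0.10 between WT responses; 2 members were then called between WT responses. URA6 with salt in HOG1-KO cells was 0.019 under the 10 CPM filter. In basal strains, URA7 was -0.0056 under DESeq2 and RLE scaling, -0.0010 without a filter, -0.0040 under the 10 CPM filter and -0.026 with only the libraries compared, where URA6 was -0.0065.

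For the response difference of the strains, DESeq2, the 10 CPM filter and leaving out both WT libraries that stood apart called 1 member in place of 0. Without both, 5 members were called in basal and 5 in salt strains and 5 between WT responses, genes called in all numbered 1248 (main 599), 1053 (60), 2924 (1542) and 814 (157), and these values changed sign: IMD4 -0.014 and FUR1 -0.078 (response difference), URA2 -0.093 (salt strains) and URA6 0.025 (WT responses). DESeq2 called 135 genes in basal strains and 383 between WT responses.

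Leaving out each library in turn gave 23 to 124 genes called in basal strains, 441 to 996 for the response difference (0 to 1 members) and 64 to 339 between WT responses (1 to 2 members). Uncalled values that crossed 0 then ranged, for the response difference, from -0.11 to 0.22 (FUR1), -0.012 to 0.39 (IMD2), -0.0038 to 0.32 (IMD3), -0.14 to 0.28 (IMD4) and -0.14 to 0.14 (URA8). In salt strains they ranged from -0.30 to 0.058 (GUA1), -0.33 to 0.14 (IMD4) and -0.074 to 0.34 (URA2), and in basal strains from -0.34 to 0.050 (IMD4), -0.055 to 0.15 (URA6) and -0.040 to 0.075 (URA7). URA6 ranged from -0.14 to 0.055 with salt in HOG1-KO cells, and IMD2 from -0.35 to 0.046 and URA6 from -0.20 to 0.025 between WT responses. IMD2 and URA6 with salt in experiment 1 were called without WT salt replicate 1 (-0.39 and -0.34) and with total counts as the only scaling (-0.27 and -0.22), and IMD2 without WT basal replicate 1 (-0.33). IMD2 with salt in WT cells of experiment 2 was called without WT basal replicate 1 (-0.52) or WT salt replicate 1 (-0.56), and without both libraries that stood apart.

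The replicate block changed no member's call and ended 4 of the list genes' calls between WT responses and 2 with salt in experiment 1; it called 17 genes between WT responses against 157, and no other count moved by over 1.5 times. Over all alternatives and comparisons, calls of the named list genes were lost 84 times and kept 1442 times, with no change of direction. The causes were not tested. With 3 replicates per group, intervals on the strain differences are wide.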
